A study of Mus musculus with 193 samples.

Results

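Wild-type testis cells of postnatal day 7 (P7) were split by the RNA of Kit, the receptor tyrosine kinase for Kit ligand. A cell was Kit-positive where its deposited Kit value was above 1 RPM, where RPM is the reads of a gene scaled to a fixed total per cell, and Kit-negative where it was 1 RPM or less. The series holds 193 single cells, of which 53 were wild-type P7 cells, 22 of them Kit-positive and 31 Kit-negative. The labels place these cells in a lettered set A of 12 cells (3 Kit-positive, 9 Kit-negative) and a lettered set B of 41 cells (19 Kit-positive, 22 Kit-negative), and the labels do not say what the letters stand for. The classes were chosen by the measured Kit values, so Kit was left out of the comparison, and its values are given only as a description.

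All 53 cells were mouse testis cells of the genotype Wildtype that had been sorted for green fluorescence, labelled Id4-eGFP Positive. The series also holds wild-type cells of postnatal day 3 (P3) and Rhox10 knockout cells of postnatal day 3. RNA of each cell was copied and amplified on a microfluidic chip with ERCC spike-in RNA in the lysis buffer. The 71 wild-type P3 cells (47 Kit-positive, 24 Kit-negative) served here only to repeat the split on cells that had not entered it, and the knockout cells were not used. Both Kit classes passed the same Id4-eGFP sort, so Kit-positive cells without that fluorescence are not among them. The labels name no animal, so cells were not taken as replicates, each Kit class of a set counted as 1 sample, and no test was made.

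In the postnatal testis, stem and progenitor spermatogonia depend on glial cell line-derived neurotrophic factor, which signals through the receptors Gfra1 and Ret, and express transcriptional regulators such as Id4 and Zbtb16. Retinoic acid moves progenitors into differentiation, a step marked by Kit and Stra8 and dependent on the helix-loop-helix factors Sohlh1 and Sohlh2. The commitment to differentiation first occurs in mice during the first postnatal week.

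Stra8 (stimulated by retinoic acid) is the gene on which the results below turn, and 2 short stretches upstream of its RefSeq start are shown because each holds the half-site of retinoid receptors. The 250 bases before the RefSeq starts of Stra8 and Kit (build GRCm38.p6) were searched on both strands for AGGTCA, the half-site, and CANNTG, the E-box bound by helix-loop-helix factors. The motifs do not overlap in either window. Capitals mark AGGTCA. The first stretch is at chr6:34920742-34920771 and the second at chr6:34920898-34920927, both on the plus strand, with the half-sites beginning 194 and 38 bases before the start.
Stra8 half-site A: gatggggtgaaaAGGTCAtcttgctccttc
Stra8 half-site B: gcctggggtaccAGGTCAgttttttacctg
AGGTCA was present in 14.02% and CANNTG in 66.2% of 32851 promoter windows of the same length. CANNTG had 0 matches in the Stra8 window, and neither motif had a match in the Kit window. A match is a description of these letters and not a site of binding. In GENCODE vM21 Stra8 (ENSMUSG00000029848.11, protein coding) spans chromosome 6 from 34920163 to 34939344 on the plus strand, so both stretches lie inside the annotated gene, in an exon annotated as untranslated in 1 of its transcripts (34920637 to 34921054).

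Kit RNA covered a wide range among the cells called positive. In set A the 3 Kit-positive cells had 1.81, 5.19 and 15.5 RPM, and the highest Kit-negative cell had 0.223 RPM. In set B the Kit-positive cells ranged from 1.34 to 132 RPM with a median of 17.8 RPM, and the Kit-negative cells had a median of 0 and a highest value of 0.834 RPM. Kit (ENSMUSG00000005672.12, protein coding) lies on chromosome 5 from 75574916 to 75656722 on the plus strand. Just above the threshold stood cells with 1.34, 1.81 and 3.74 RPM (5, 5 and 9 reads), and just below it cells with 0.834, 0.791 and 0.661 RPM (2, 3 and 2 reads). The classes next to the threshold therefore differ by a few reads, and a Kit-negative cell is one in which few or no Kit reads were found at this depth.

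Kit-positive cells were not the deeper ones in median reads in either set. Whole reads on genes, recovered from the deposited values, ranged from 226903 to 820131 in the P7 cells. The median was 502330 in Kit-positive against 565260 in Kit-negative cells of set A, and 433185 against 489060 in set B. Genes above 1 RPM had medians of 6254 against 5554 per cell in set A and 6632 against 6523.5 in set B. Reads on genes per spike-in read had medians of 13.3 against 10.3 in set A and 22.2 against 18.1 in set B. The part of these small shifts in the results was not tested.

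All 53 cells carried germ cell RNA: Ddx4, Dazl, Mael and Sall4 were above 1 RPM in all of them, and Tex101 in 52. Sertoli cell markers summed to 0 RPM in the 3 Kit-positive cells of set A and to at most 29.3 RPM in any P7 cell. The Sertoli marker Clu exceeded 1 RPM in 3 cells, with a highest value of 8.33 RPM. Rhox5 did so in 9 cells (up to 29.3 RPM), Sox9 in 5 (up to 9.47 RPM), Kitl in 2 and Wt1 in 1. Amh, Gata4 and Cldn11 exceeded 1 RPM in no P7 cell. The summed level of the 5 endothelial markers in set A was 2.62 to 87.2 RPM in the Kit-positive cells and at most 1.49 RPM in the Kit-negative ones. This came from Tek in cell 1 (87.2 RPM) and Cdh5 in cells 6 and 12 (9.29 and 2.62 RPM), while Pecam1, Kdr and Emcn were at 0 in these 3 cells. In set B the summed level reached 15.1 RPM in Kit-positive and 14.6 RPM in Kit-negative cells. Summed Leydig, leukocyte and erythroid markers were at 0 in the Kit-positive cells of set A, against highest sums of 42.9, 8.68 and 0 RPM in its Kit-negative cells, and myoid or stromal markers reached at most 0.723 and 12.1 RPM in these classes. In set B the highest sums in Kit-positive and Kit-negative cells were 41.5 and 28.9 RPM for Leydig, 28.9 and 23.2 RPM for myoid or stromal, 14.95 and 5.72 RPM for leukocyte, and 0.345 and 2.31 RPM for erythroid markers. The Leydig sums came from Star alone, above 1 RPM in 15 cells, with Cyp17a1, Cyp11a1 and Lhcgr at 0 in all P7 cells. The part of these other-cell markers in the results was not tested.

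Stra8 had the highest smaller-of-both-sets difference of the 7567 genes that passed the level filter given below. Its Kit-positive cells were above Kit-negative cells by 1.77 in set A and by 2.01 in set B. Each difference is between class means of log2(RPM + 1). By its difference in 1 set, Stra8 ranked 412 from the highest in set A and 3 in set B. In set A the Kit-positive cells had 6.03, 7.96 and 27.3 RPM of Stra8, against a lowest value of 0, a median of 0 and a highest value of 64.9 RPM in the 9 Kit-negative cells. In set B the Kit-positive cells had a lowest value of 0, a median of 31.6 and a highest value of 152 RPM, against 0, 0.487 and 110 RPM in the Kit-negative cells. The classes overlapped in both sets, and 1 Kit-positive cell of set B exceeded every Kit-negative cell. The SD between cells was 2.63 in the Kit-positive and 2.23 in the Kit-negative cells of set B. The mean of the 2 set differences was 1.89, and it moved with the pseudocount from 0.71 (pseudocount 10) to 3.19 (pseudocount 0.1). With class means taken before the logarithm it was 0.78, below the 2-fold line.

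Stra8 was above 1 RPM in 17 of the 22 Kit-positive cells and in 14 of the 31 Kit-negative cells. In set B these were 14 of 19 Kit-positive cells (73.7%, exact 95% binomial interval 48.8 to 90.9%) and 10 of 22 Kit-negative cells (45.5%, 24.4 to 67.8%). The intervals overlap and cover counting error only. After each cell was thinned to 200000 reads on genes, the shares with a Stra8 read were 73.7% and 50% in set B. Stra8 RNA was thus also found in Kit-negative cells, and 5 of 19 Kit-positive cells of set B had it at 1 RPM or less.

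**Figure D1:**
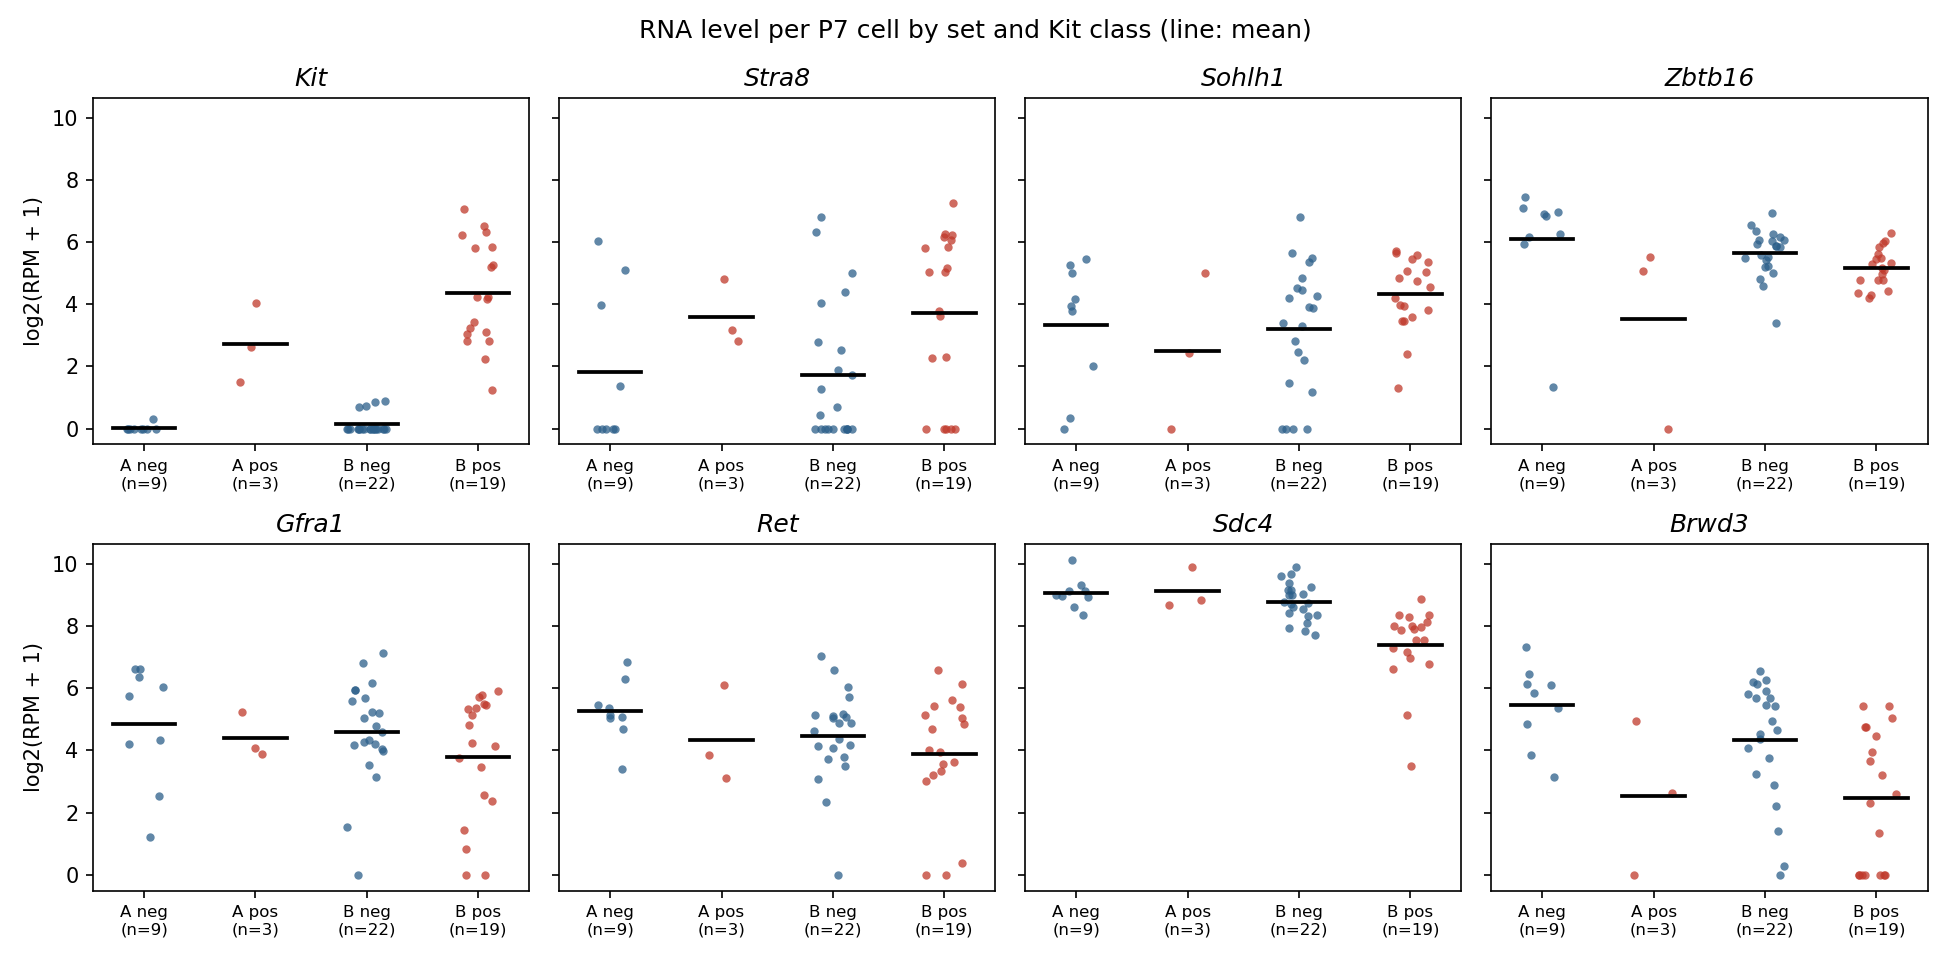
RNA level per P7 cell, as log2(RPM + 1) on the y axis, for Kit, the gene that split the cells, and 7 other genes. Each point is 1 cell (blue Kit-negative, red Kit-positive), the black line is the class mean, and A and B are the lettered sets. Stra8 means are higher in the Kit-positive cells of both sets, Sohlh1 goes opposite ways in the sets, and in Sdc4 9 Kit-positive cells of set B lie below every Kit-negative cell.

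Stra8 and Kit values of the Kit-positive cells are set side by side only as a description, since Kit chose these cells. Among set B cells the 14 with Stra8 above 1 RPM had Kit between 6.05 and 132 RPM with a median of 36.5 RPM, and the 5 cells without had Kit between 1.34 and 9.71 RPM with a median of 5.99 RPM. The 3 Kit-positive cells of set A did not have this order: Kit of 1.81, 5.19 and 15.5 RPM stood beside Stra8 of 7.96, 27.3 and 6.03 RPM. The 14 set B cells with Stra8 and the 5 without had similar Zbtb16, with medians of 34.3 and 38.4 RPM and overlapping ranges of 17.3 to 76.4 and 18.6 to 56.7 RPM. Ret had medians of 12.97 and 40.7 RPM and Gfra1 of 14.6 and 34.05 RPM in the same 2 groups of cells, again with overlapping ranges. Sohlh1 had medians of 19.9 and 25.8 RPM, lower in the cells with Stra8.

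**Figure D2:**
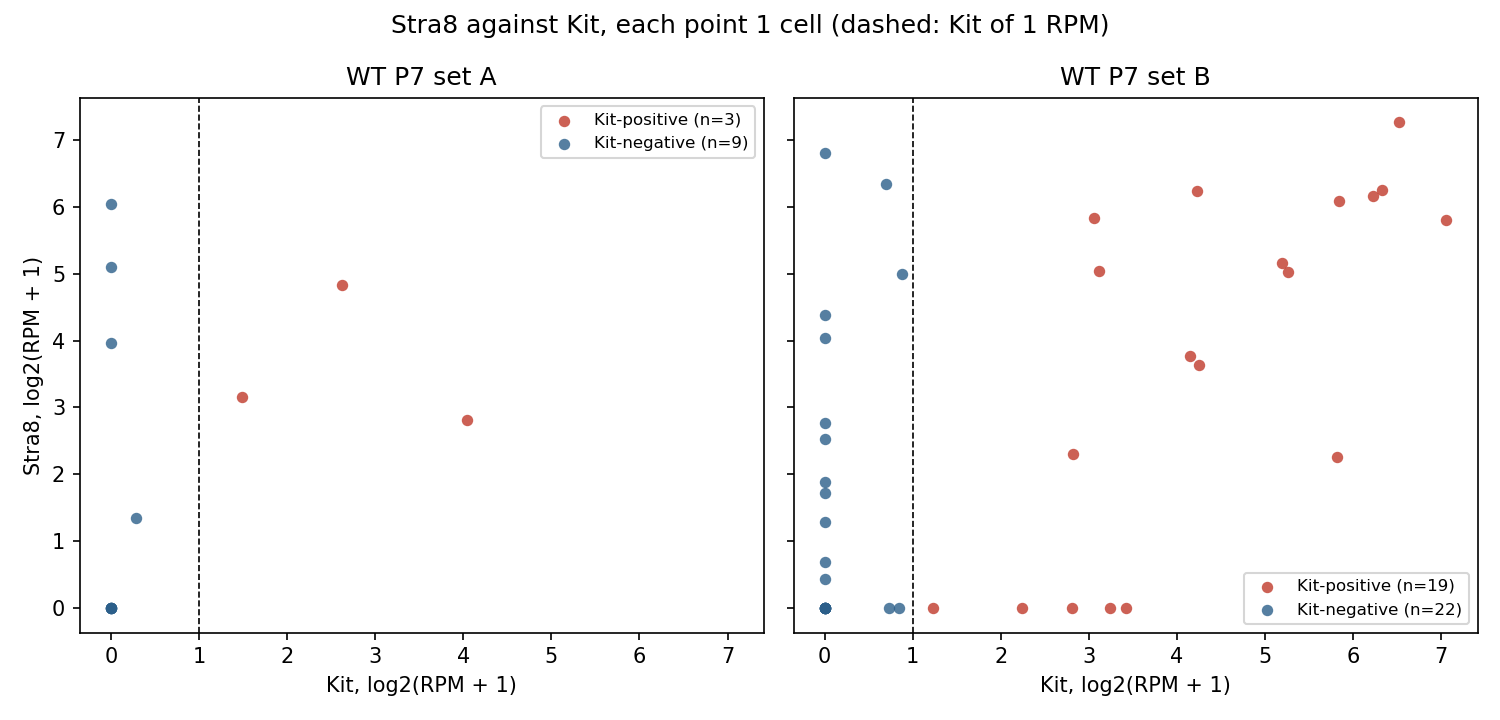
Stra8 against Kit in each P7 cell, both as log2(RPM + 1), with set A on the left and set B on the right. The dashed line is the Kit threshold of 1 RPM, red cells are Kit-positive and blue cells Kit-negative. In set B the 5 Kit-positive cells with Stra8 at 0 have Kit of 9.71 RPM or less, and Kit-negative cells reach 110 RPM of Stra8.

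Sohlh1, the other marker of differentiating spermatogonia in the list, did not separate the classes the same way in both sets. In set A its difference was -0.85, with 0, 4.37 and 31.2 RPM in the Kit-positive cells against 0, 14.2 and 42.4 RPM (lowest, median and highest) in the Kit-negative cells. In set B it was 1.13, with 1.48, 22.5 and 50.8 RPM in the Kit-positive cells against 0, 11.7 and 111 RPM in the Kit-negative cells, and 19 of 19 against 18 of 22 cells were above 1 RPM. The classes overlapped in both sets. Without Kit-positive cell 1 of set A, in which Sohlh1 was 0, the set A difference of Sohlh1 was 0.39. It was -0.82 without cell 6 and -2.12 without cell 12. Sohlh1 (ENSMUSG00000059625.6) lies on chromosome 2 from 25842995 to 25847248 on the minus strand. With all cells kept Sohlh1 went opposite ways in the sets, and Stra8 was present in many Kit-negative cells. The classes are therefore called here by the rule, Kit-positive and Kit-negative, and not by a cell type.

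Across genes the sets shared little. The level of a gene was the mean log2(RPM + 1) over all cells of a set, averaged over the sets, and 7567 genes had at least 1. Of these, 352 (4.65%) were higher and 236 (3.12%) lower in Kit-positive cells by a mean difference of at least 1, with the same sign in both sets. This difference is 2-fold on this scale, and 588 genes (7.77%) were called in either direction. The same sign in both sets held for 3851 genes (50.9%), of which 2078 (27.5%) were above 0 and 1773 (23.4%) below 0. Across these genes the set A and set B differences had a Pearson r of 0.012 and a Spearman rho of 0.0092, and genes are not independent replicates. The SD across genes of the difference was 1.07 in set A and 0.47 in set B, so the mean of the sets follows set A, with its 3 Kit-positive cells, more than set B. A difference of at least 1 was reached in set A alone by 1297 genes (17.1%) higher and 1319 (17.4%) lower, and in set B alone by 195 (2.58%) higher and 117 (1.55%) lower. A difference of at least 1 within each set, a rule added after the values were seen, was met by 43 genes (0.568%) higher and 27 genes (0.357%) lower.

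**Figure D3:**
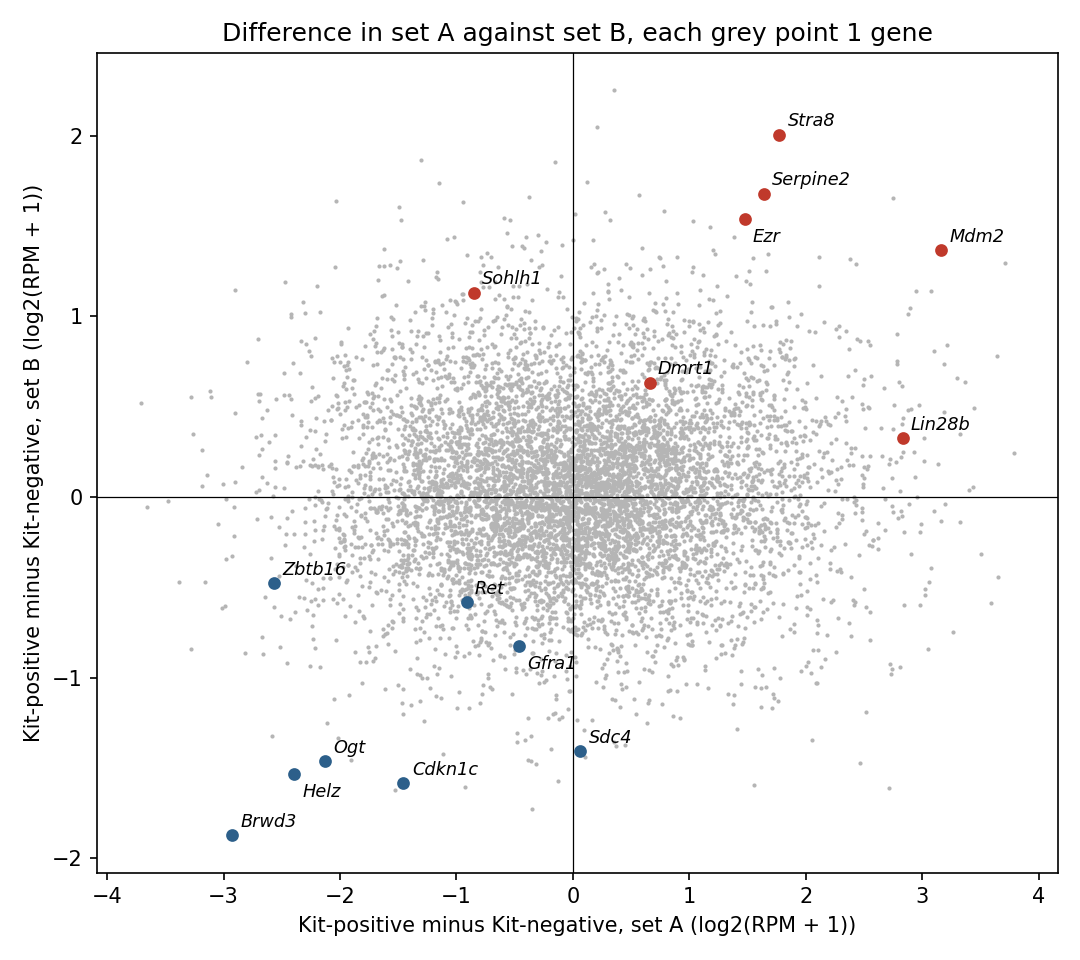
Kit-positive minus Kit-negative difference in mean log2(RPM + 1) in set A (x axis) against set B (y axis), each grey point 1 of 7567 genes. Red and blue points are named genes with a mean difference above and below 0. The cloud shows no slope (Pearson r 0.012) and is wider along set A, and Stra8 and Brwd3 stand at opposite corners.

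Genes of the differentiation switch other than Stra8 had small differences or a difference in 1 set. Of 20 genes fixed in this list 15 had a level of at least 1, with a median difference of 0.32 (0.71 in set A, 0.04 in set B) against 0.016 over all genes, and 6 (40%) were above 0 and 2 (13.3%) below 0 in both sets, against 27.5% and 23.4% of all genes. Only Stra8 and Lin28b were called 2-fold higher and none lower (13.3% of 15 against 4.65% of all genes). Lin28b, a let-7 blocking RNA-binding protein, had differences of 2.83 in set A and 0.33 in set B. Its values in the Kit-positive cells of set A were 18.3, 24.96 and 35.1 RPM, against 0, 1.49 and 29.7 RPM in Kit-negative cells, but in set B the medians were 6.90 and 5.52 RPM with overlapping classes. Dmrt1, a DM-domain regulator of the mitosis-to-meiosis decision, differed by 0.66 and 0.63, Elavl2, an RNA-binding protein, by 0.44 and 0.38 (below 0 in set A without Kit-positive cell 1), and Sohlh2, the partner of Sohlh1, by 1.10 and 0.04. Dmrt1 in set B had 1.21, 29.9 and 73.8 RPM in Kit-positive cells against 0, 19.8 and 47.6 RPM in Kit-negative cells, with 2 Kit-positive cells above every Kit-negative one. The D-type cyclin Ccnd2 (1.60 and -0.18) and the de novo DNA methyltransferases Dnmt3a (0.71 and -0.92) and Dnmt3b (-0.81 and 0.78) had opposite signs in the sets.

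Genes of progenitor spermatogonia were mostly lower in Kit-positive cells of both sets. Of 16 genes 11 had a level of at least 1, with a median difference of -0.43 (-0.37 in set A, -0.48 in set B), against 0.016 over all genes. In both sets 7 (63.6%) were below 0 and 2 (18.2%) above 0, against 23.4% and 27.5% of all genes. Without Kit-positive cell 1, 6 or 12 of set A the number below 0 in both sets was 8, 6 or 5. 1 gene (9.09%, against 3.12% of all genes) was called lower and none higher. The called gene was Zbtb16, the zinc finger repressor PLZF, with differences of -2.57 and -0.48. In set A its Kit-positive values were 0, 32.8 and 44.9 RPM, and 8 of the 9 Kit-negative cells were higher than all 3, with 1.53, 112 and 174 RPM as lowest, median and highest. The set B Kit-positive cells had 17.3, 35.1 and 76.4 RPM and the Kit-negative cells 9.57, 56.7 and 120 RPM, with 3 Kit-negative cells above every Kit-positive cell. Without Kit-positive cell 6 of set A, in which Zbtb16 was 0, the mean difference was -0.64 and the 2-fold call was lost.

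The other progenitor genes had smaller mean differences, 6 of them below 0 and 2 above 0 in both sets, and Upp1 (0.64 and -0.71) and Tsc22d3 (0.02 and -0.13) had opposite signs. The set A sign of Lin28a turned without Kit-positive cell 6 or 12, that of Nanos3 without cell 12, that of Cdh1 without cell 1 or 6, and that of Taf4b without cell 6. Nanos3, an RNA-binding protein that germ cells need to survive, differed by -0.49 and -0.95, and in set B 6 Kit-negative cells were above every Kit-positive cell. The adhesion molecule Cdh1 differed by -0.13 in set A and by -1.57 in set B, where 10 of 19 Kit-positive and 20 of 22 Kit-negative cells were above 1 RPM. Glis3 (-0.98 and -0.48), Foxo1 (-0.83 and -0.32), Lin28a (-0.37 and -0.49) and Sall4 (-0.65 and -0.16) were also below 0 in both sets, while Taf4b (0.19 and 0.56), a subunit of a transcription factor complex of germ cells, was above 0 in both.

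Stem cell genes also had a median below 0 in both sets, with no call in either direction. Of all genes 4.65% were called higher and 3.12% lower. Of 25 genes 15 had a level of at least 1, with a median difference of -0.40 (-0.46 in set A, -0.28 in set B), against 0.016 over all genes. In both sets 5 (33.3%) were below 0 and 1 (6.67%) above 0, against 23.4% and 27.5% of all genes. The receptors Gfra1 (-0.46 and -0.83) and Ret (-0.91 and -0.58) and their downstream regulators Etv5 (-1.24 and -0.31), Bcl6b (-1.68 and -0.09) and Id4 (-1.02 and -0.36), the gene whose reporter selected the cells, were the members below 0 in both sets.

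The Gfra1 values overlapped strongly, with 13.6, 15.8 and 36.9 RPM in the Kit-positive cells of set A against 1.34, 52.9 and 97.4 RPM in Kit-negative cells. In set B Gfra1 had 0, 17.9 and 58.6 RPM in Kit-positive against 0, 24.7 and 139 RPM in Kit-negative cells. Ret had 7.60, 13.4 and 67.7 RPM in the Kit-positive cells of set A against 9.69, 34.4 and 115 RPM, and 0, 15.1 and 95.8 against 0, 26.2 and 130 RPM in set B. Id4 RNA was above 1 RPM in 13 of 19 Kit-positive and 19 of 22 Kit-negative cells of set B. The set B differences of Gfra1 and Ret stand beside SDs between cells of 2.01 and 1.62 (Gfra1, Kit-positive and Kit-negative) and 1.95 and 1.48 (Ret) on the same log2 scale.

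Sdc4, a heparan sulfate proteoglycan of the stem cell list, is given by set. In set B its lowest, median and highest values were 10.2, 232 and 462 RPM in Kit-positive cells and 210, 434 and 957 RPM in Kit-negative cells, a difference of -1.41. Of the set B cells, 9 Kit-positive cells were below every Kit-negative cell and 10 Kit-negative cells above every Kit-positive cell. In set A the Kit-positive cells had 405, 453 and 944 RPM and the Kit-negative cells 324, 506 and 1116 RPM, a difference of 0.06. In P3 cells the differences of Sdc4 were 0.012 in set A and 0.0012 in set B. Erbb3 (3.27 and -0.75) and Tcl1 (1.66 and -1.05) had opposite signs in the P7 sets. Whether the sets differ in Sdc4 was not tested.

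**Figure D4:**
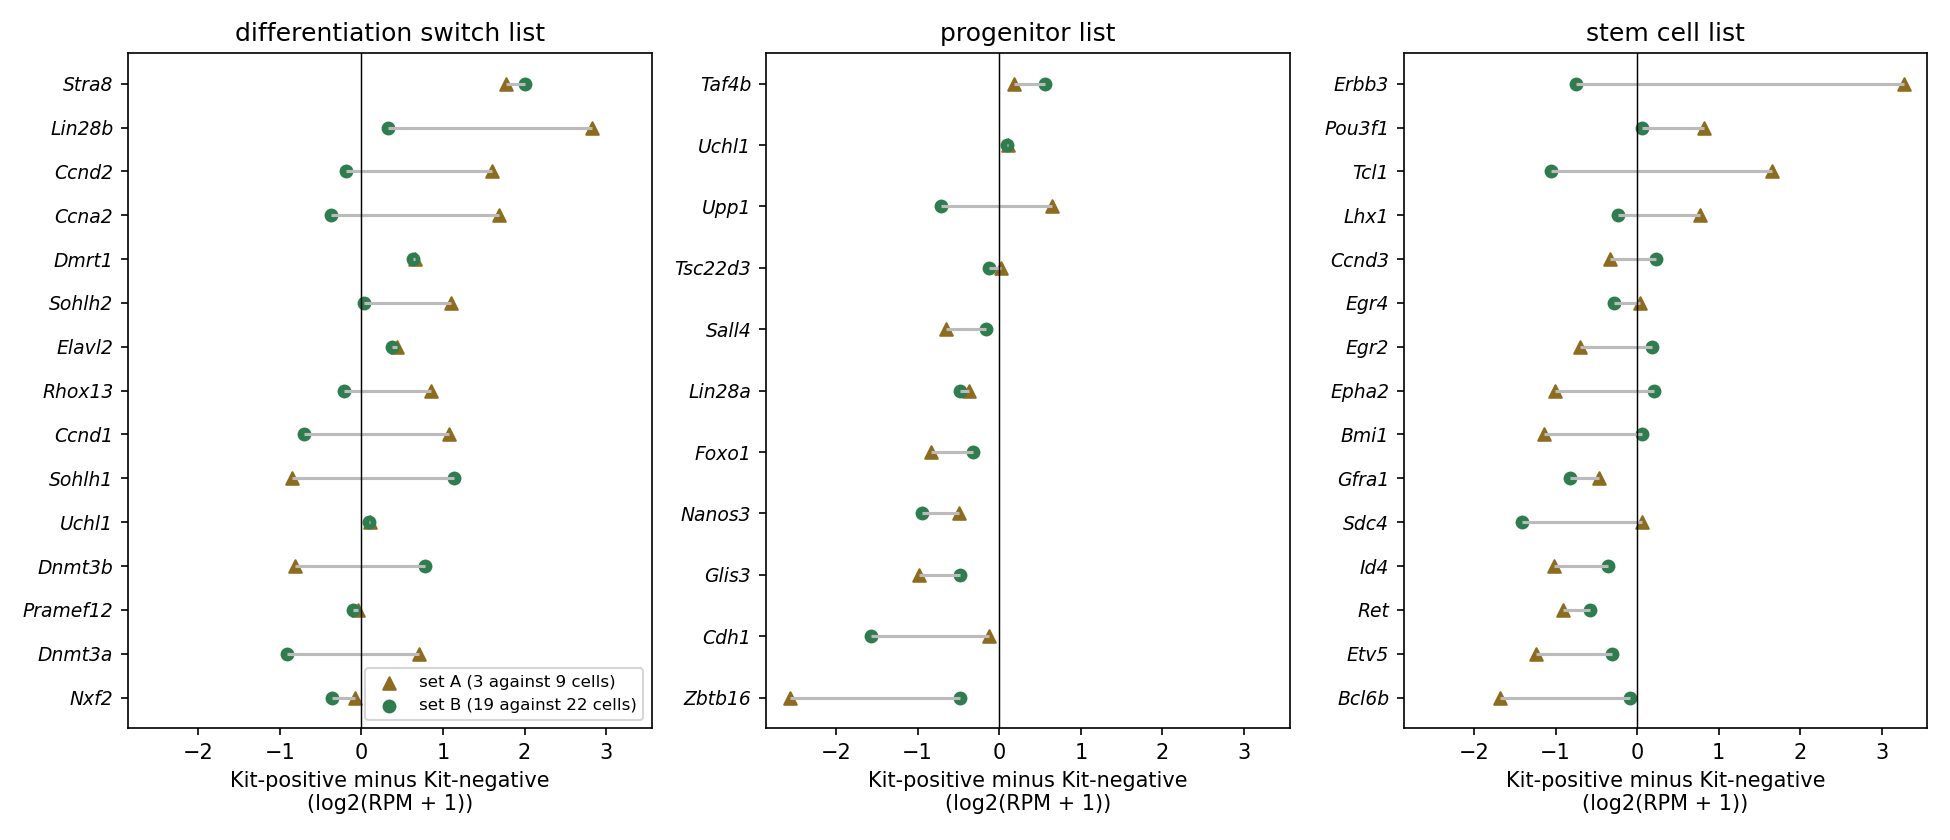
Kit-positive minus Kit-negative difference in mean log2(RPM + 1) on the x axis for each measured gene of the differentiation switch, progenitor and stem cell lists, with 1 row per gene. Triangles are set A (3 against 9 cells), circles set B (19 against 22 cells), and grey lines join the values of a gene. Of the 11 progenitor genes 7 lie left of 0 in both sets, as do the stem cell genes Gfra1, Ret, Id4, Etv5 and Bcl6b.

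In the pathway downstream of the receptor more genes were below 0 than above 0 in both sets. Which genes these were depended on single Kit-positive cells of set A. Of 36 genes fixed for Kit signalling 28 were measured, with a median difference of -0.20. In both sets 11 (39.3%) were below 0 and 4 (14.3%) above 0, against 23.4% and 27.5% of all genes, and 1 (3.57%, against 3.12% of all genes) was called lower and none higher. Fyn, a Src family kinase, was the gene called, with differences of -2.23 and -0.79. Its values were 0, 0.524 and 24.3 RPM in the Kit-positive cells of set A against 1.12, 16.3 and 57.2 RPM in the Kit-negative cells, and 0, 14.3 and 58.1 against 0, 27.4 and 95.8 RPM in set B. The translational regulators Rps6kb1 (0.50 and 0.84, below 0 in set A without Kit-positive cell 12) and Eif4ebp1 (0.24 and 0.98) were above 0 in both sets, while the kinase Mtor upstream of both had -2.19 and 0.03. The adaptor Gab1 (-0.83 and -0.37) and the regulatory subunit Pik3r2 of phosphoinositide 3-kinase (-1.24 and -0.50) were below 0 in both. Of the genes below 0 in both sets, Rptor and Tsc1 turned above 0 in set A without Kit-positive cell 6. Sos1 and Plcg1 did so without cell 1 or 6, and Pik3ca without cell 1. In the other direction, Shc1 was below 0 in both sets without cell 1, and Akt1 without cell 12.

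Of 25 retinoid genes only 5 were measured, with a median difference of 0.19, and none was called. Crabp1, which binds retinoic acid in the cytoplasm, differed by 0.48 and 1.11, and 5 Kit-positive cells of set B were above every Kit-negative cell. The retinoid X receptor Rxra had 1.19 and -0.13. Of 28 meiotic genes 15 were measured, with a median difference of 0.22 (0.08 in set A, 0.08 in set B). In both sets 6 (40%) were above 0 and 3 (20%) below 0, against 27.5% and 23.4% of all genes. None was called, against 4.65% of all genes called higher and 3.12% called lower. The synaptonemal complex gene Syce1 (1.21 and 0.64) and the recombinase Dmc1 (0.79 and 0.43) were above 0 in both sets, and Sycp1, which joins the complex's axes, was below 0 (-0.80 and -0.19). The set A sign of Dmc1 and of Sycp1 turned without Kit-positive cell 6.

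The calls in the lists of this paragraph are few and are read against 4.65% of all genes called higher and 3.12% called lower. The P7 counts above 0 and below 0 in both sets are read against 27.5% and 23.4% of all genes. The S phase list had a median near 0. Of 25 S phase genes, all measured, the median difference was -0.01, with 5 (20%) above 0 and 7 (28%) below 0 in both sets. Among them 1 was called lower (Chaf1a, a histone chaperone subunit, lost without Kit-positive cell 6 of set A). Of 25 genes of G2 and mitosis, all measured, the median difference was 0.18 (0.26 in set A, -0.12 in set B). In both sets 5 (20%) were above 0 and 6 (24%) below 0. In each direction 1 gene was called (the phosphatase Cdc25c higher and the spindle motor Kif11 lower, both lost without Kit-positive cell 1 of set A). The same list in P3 cells had a median difference of 0.85, with 18 above 0 and 1 below 0 in both P3 sets. Of 7007 genes measured at both ages, 23.1% were above 0 and 25.97% below 0 in both P3 sets. The ages were not tested against each other. Oxidative phosphorylation (27 measured) had a median of 0.11 (0.22 in set A, -0.02 in set B). Of its 27 genes 2 (7.41%) were called higher, Uqcrc2 and Cyc1 of complex III, and Cyc1 differed by 2.40 and 0.18. DNA methylation (6 measured) had a median of 0.04 (0.49 in set A, -0.03 in set B). The medians were -0.07 for glycolysis (14 measured), -0.07 for piRNA and RNA binding (15 measured) and -0.12 for the 8 immediate early and stress genes measured. In the piRNA list Tdrkh was called higher and Tdrd9 lower, both tudor domain proteins, and each call was lost without Kit-positive cell 12 of set A. The 3 measured ID and E proteins had a median of 0.44 (1.38 in set A, 0.09 in set B) with 1 (33.3%) above 0 in both sets. The 5 germ cell markers had a median of -0.32 with 3 (60%) below 0 in both sets. Of 10 measured surface genes the median was 0.08 (-0.01 in set A, 0.06 in set B), and 1 was called higher. This was the adhesion molecule Epcam, by 1.86 and 0.76, with a mean of 0.92 without Kit-positive cell 1 of set A. The dioxygenase Tet3, which oxidises methylated cytosine, differed by 2.88 and 1.01 and was the gene called in the DNA methylation list. In set B it had 0, 3.45 and 57.0 RPM in Kit-positive against 0, 0.497 and 11.1 RPM in Kit-negative cells, and 5 Kit-positive cells were above every Kit-negative cell.

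Among genes with a level of at least 2 and a symbol that is not a predicted or numbered name, the 12 highest mean differences with the same sign in both sets were those of Mdm2, Nedd1, Pnrc2, Maged2, Cpt1a, Rrp9, Nploc4, Agfg1, Stra8, Ttc15, Prpf18 and Fbxo7, from 2.26 down to 1.74, and set B alone gave them 0.06 to 2.01. Among the 12 lowest by the same rule were Brwd3, G2e3, Helz, Ccdc91, Agpat6, Cln3, Mns1, Ube2r2, Ogt, Pex16 and Trp53, from -2.40 to -1.75, and set B alone gave these 11 genes -1.87 to -0.03. In each of these lists 4 of the 12 met the 2-fold line in both sets. Mdm2, the ubiquitin ligase that turns over the tumour suppressor p53, had the highest mean by this rule, with 3.16 in set A and 1.37 in set B. Its values were 11.7, 42.7 and 75.3 RPM in the Kit-positive cells of set A against 0, 2.67 and 23.03 RPM in the Kit-negative cells, so 2 Kit-positive cells were above every Kit-negative one. In set B Mdm2 had 0.24, 20.9 and 70.7 RPM against 0, 8.73 and 58.0 RPM, with overlapping classes. Trp53, which encodes p53, had -3.47 in set A and -0.03 in set B.

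Brwd3, a bromodomain protein with WD repeats, was lowest in Kit-positive cells by its smaller difference, with -2.92 in set A and -1.87 in set B. Its Kit-positive values in set A were 0, 5.25 and 30.04 RPM against 7.79, 56.8 and 160 RPM in the Kit-negative cells. In set B they were 0, 5.11 and 42.1 RPM against 0, 27.1 and 92.3 RPM. The classes overlapped in both sets. Brwd3 was also below 0 in both P3 sets (-0.31 and -0.84).

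Helz, a helicase with a zinc finger, and Ogt, the enzyme that adds N-acetylglucosamine to nuclear and cytoplasmic proteins, were also lower. Helz differed by -2.40 and -1.53 and had 0, 18.3 and 118 RPM in Kit-positive against 4.44, 53.1 and 188 RPM in Kit-negative cells of set B, and its mean moved from -1.97 to -1.20 without Kit-positive cell 12 of set A. Ogt differed by -2.13 and -1.46 and had 0.329, 10.4 and 73.9 RPM against 0, 38.3 and 131 RPM there. At P3 Ogt had the opposite sign, with 1.02 and 0.35, and Helz had -0.63 and 0.24.

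3 further genes met the 2-fold line in each set and were chosen after their values were seen. The serine protease inhibitor Serpine2 differed by 1.64 and 1.68, and in set B it was above 1 RPM in 15 of 19 Kit-positive and 8 of 22 Kit-negative cells. Its mean of 1.66 was 1.02 without Kit-positive cell 1 of set A. The membrane-cytoskeleton linker Ezr differed by 1.47 and 1.54, with 0, 22.05 and 75.9 RPM in Kit-positive against 0, 3.94 and 44.9 RPM in Kit-negative cells of set B. The cyclin-dependent kinase inhibitor Cdkn1c differed by -1.46 and -1.58, with 0, 11.5 and 75.1 RPM against 2.40, 30.1 and 208 RPM in set B. The mean of Cdkn1c was -0.63, with 0.33 in set A, without Kit-positive cell 6 of that set, so its call rests on 1 cell there.

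The same split on Kit in wild-type P3 cells, which the P7 rule did not use, repeated the P7 genes at shares near those of all genes. P3 set A had 11 Kit-positive and 5 Kit-negative cells, and P3 set B had 36 and 19. Reads on genes ranged from 25424 to 1201355 in the P3 cells, a wider range than at P7. A P3 set A cell with 6 Kit reads was Kit-positive (23.9 RPM), and a P3 set B cell with 6 was Kit-negative (0.804 RPM). The part of depth in the P3 split was not tested. Of 331 genes called higher at P7 and measured at P3, 76 (22.96%) were above 0 in both P3 sets, against 23.1% of 7007 genes measured at both ages. Of 216 genes called lower at P7, 58 (26.9%) were below 0 in both P3 sets, against 25.97%. Of the genes that met the 2-fold line in each P7 set, 11 of 41 higher genes (26.8%) and 8 of 26 lower genes (30.8%) repeated. Stra8 had -0.97 and 0.49 in the P3 sets, and Sohlh1 -0.79 and -0.40. At P3 62 genes (0.806%) of 7694 were called higher and 105 (1.36%) lower by the same rule.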

How the data were processed

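The authors deposited 1 table with a value for each gene and cell, made for wild-type and Rhox10 knockout cells. The file calls the values TPM, but they are reads scaled to a fixed total per cell (RPM): multiples of 1 read's worth fitted nearly all values of the deposited RPM table (99.99 to 100% per P7 cell within 0.001 RPM), so they carry no gene length and levels were not compared between genes. STAR 2.3.0, HTSeq 0.6.1 and the mouse build mm10 are named per the submitters' processing notes, without their roles. For the annotation, the strand setting and reads with more than 1 alignment, nothing is stated in the labels. Total reads implied per P7 cell ranged from 1.74e+06 to 4.78e+06. The deposited rows, spike-in rows and Rn45s included, summed to 13.9 to 23.01% of this total per cell. The 84 spike-in rows, Rn45s and Kit were left out of the comparison.

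For each gene, mean log2(RPM + 1) of Kit-positive cells (Kit above 1 RPM) minus that of Kit-negative cells was taken within set A and within set B, and the 2 differences were averaged. A gene was called where this mean was at least 1 in size with the same sign in both sets, among genes whose level (mean of the 2 set means) was at least 1. No test was made, since the labels name no animal. No doublet caller was run. The named genes were Stra8 and Sohlh1, the 12 highest and 12 lowest mean differences whose level reached 2 and whose sets shared a sign, up to 2 members per direction of each gene list, and any measured member of the differentiation switch, stem cell, progenitor, retinoid and Kit signalling lists. 1 gene that met this rule is not reported here. Of 331 list entries 5 were not matched. The members and lists were chosen with earlier results of these data known. The highest correlation between 2 P7 cells was 0.799 and no 2 columns were identical. Shares have exact Clopper-Pearson 95% intervals. Scripts used python 3.11.15, numpy 2.4.6, pandas 2.3.3 and scipy 1.17.1, and were checked on simulated data. Alternatives changed the pseudocount, the level filter, the Kit threshold, the weighting of sets, the scaling and the depth, and left out sets or single cells.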

Additional observations from a re-analysis of the deposited data

How the results depend on the processing

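The counts of genes called moved widely with the settings. The 352 higher genes became 3 with a pseudocount of 10, 224 and 32 with a level of at least 2 and 4, 171 with cells pooled over the sets, 1284 with set A alone, 206 with set B alone (each filtered on that set's own level) and 43 with a difference of at least 1 within each set. The 236 lower genes became 8 with a pseudocount of 10, 41 with a level of at least 4, 365 with Kit above 5, 70 with cells pooled, 888 with means taken before the logarithm, 1322 with set A alone, 119 with set B alone and 27 with a difference of at least 1 within each set. Leaving out each Kit-positive cell of set A gave 448 to 515 higher and 274 to 409 lower genes, the 409 without cell 12. The share of higher genes repeated at P3, 22.96%, against 23.1% of all genes, was 33.3% with a pseudocount of 10, 38.1% with a level of at least 4 and 30.04% with Kit above 0, against 22.004%, 28.7% and 27.7% of all genes under those settings. The difference in log2 reads on genes, -0.20, was -0.12 with Kit above 0. Of 738 recomputed values 610 moved by less than the spread used as a limit and 128 by more. That spread is not defined here and is not one between animals, so these counts do not measure how firm the results are. The 738 values were the list medians, the median of all genes, Sohlh1 and the 12 highest and 12 lowest genes. None of these highest and lowest genes changed sign, but they were chosen for a shared sign, so set A or set B alone could not turn them. Most called genes were not among these values. Without Kit-positive cell 6 the set A difference of the called genes Cdkn1c and Acbd5 turned to 0.33 and -0.06. The Stra8 difference stayed above 0 in every setting run (0.71 to 3.19), as did the progenitor and stem cell medians below 0 (-0.53 to -0.08 and -0.75 to -0.10). Sohlh1 ranged from -0.85 to 1.13, and from -0.49 to 0.76 when a Kit-positive cell of set A was left out. Leaving out such a cell also changed the sign of 7 list medians near 0: DNA methylation (-0.07 to 0.23), G2 and mitosis (-0.02 to 0.32), S phase (-0.16 to 0.26), immediate early and stress (-0.29 to 0.12), meiotic (-0.08 to 0.27), piRNA and RNA binding (-0.35 to 0.05) and surface (-0.15 to 0.10). Leaving out cells with Clu above 10 RPM was not run, since no P7 cell had it. The set A values rest on 3 Kit-positive cells, and a single read was worth between 0.209 and 0.575 RPM in the P7 cells, which limits values near the Kit threshold. No paired analysis was possible because each cell belongs to 1 Kit class and the cell numbers pair no cells.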
